A study of Danio rerio with 4 samples.

Results

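The genes described here are 10 zebrafish Rgs genes, rgs2, rgs3a, rgs4, rgs5a, rgs5b, rgs12b, rgs14a, rgs16, rgs18 and rgs20. They were picked by gene symbol among 32057 genes measured in whole embryos, with the high values of rgs5b and rgs20 in the quadruple mutants already known, so the difference between genotypes is given for them as a description without a test. The table held 24 Rgs genes in all, and the other 14 are used for comparison. Each of the 10 matched 1 Ensembl identifier, and rgs5a is listed there under a symbol without its copy letter.

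The study compared quadruple mutants, mdm2-/-; puma-/-; noxa-/-; p21-/-, with siblings that were mdm2+/- or mdm2+/+ on an identical background of puma-/-, noxa-/- and p21-/-. Every embryo therefore lacked puma and noxa, which are pro-apoptotic targets of p53, and p21, a cyclin-dependent kinase inhibitor, and the genotypes differed in mdm2, whose product restrains p53. There were 2 poly-A RNA libraries per genotype, from embryos raised about 30 to a dish. In the titles the mutants are also termed abnormal and their siblings normal, an appearance that cannot be told apart from genotype. The titles give an age of 18 hours post-fertilization where the tissue label gives 30.

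Proteins of the Rgs family end signalling by heterotrimeric G proteins: they speed the hydrolysis of GTP by the G alpha subunit, which returns it to its inactive form. In mammals the small R4 members act mainly on the Gi and Gq classes and the RZ members on Gz and Gi. Of the R12 members, RGS12 and RGS14 carry further domains beside the Rgs domain. In mammals RGS5 is a marker of pericytes, RGS4 is prominent in neurons and RGS18 in platelets and their precursors.

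Levels are in TPM, a measure of transcript abundance scaled for transcript length and library total, which keeps no sequencing depth and leaves the counting error of a low value unknown. The number of genes at 1 TPM or more ranged from 15242 to 15584 over the libraries. Transcripts of mdm2 ranged from 1634 to 1819 TPM over the mutant and from 81.9 to 85.1 TPM over the control libraries, but such a level does not show which allele was read. Whether the 2 libraries of a genotype derive from different clutches is not labelled, and the p-values reflect nothing beyond the spread among these samples, possibly a technical one. In whole embryos, fewer cells of a type and less RNA per cell cannot be told apart.

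Of the 10 genes, rgs5b, rgs20, rgs12b and rgs5a were higher in both mutant libraries than in either control, and rgs4, rgs3a and rgs2 were lower in both. The remaining members, rgs14a, rgs16 and rgs18, stayed under 1 TPM in every library and were left out of the fit across genes. That fit used limma on log2(TPM + 1) for genes that reached 1 TPM in 2 or more libraries, with a threshold of 0.05 on p-values adjusted by the Benjamini-Hochberg method. Among the 7 members in the fit, 4 were past the threshold as higher and 2 as lower, where 65.6% of the 16172 tested genes were past it in either direction, 28.0% as higher and 37.7% as lower. All 7 had genotypes that did not overlap, as did 83.3% of tested genes. Because the genotypes' values were used to choose the members, nothing is read from these counts. Without either mutant library, rgs5b and rgs20 no longer met the filter and 2 members were past the threshold as higher.

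**Figure D1:**
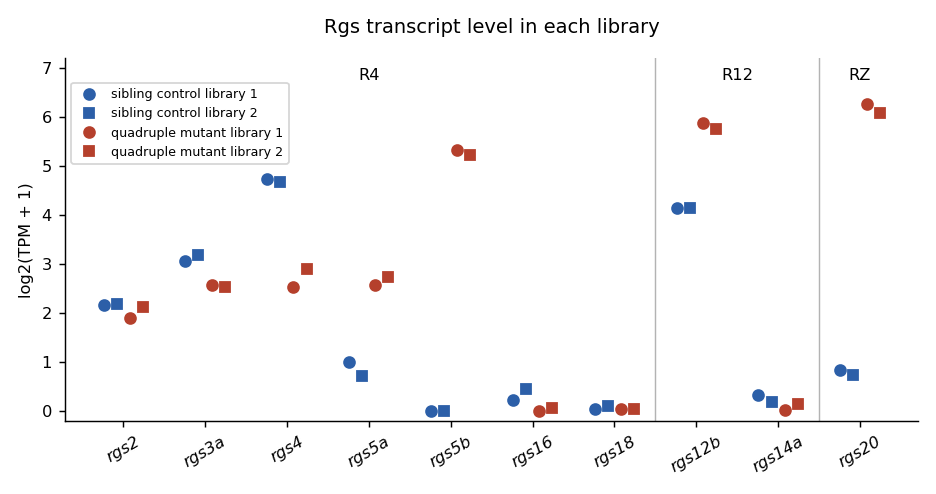
Level of each of the 10 Rgs genes in each library, as log2(TPM + 1), grouped by subfamily (R4, R12, RZ); each point is 1 library, blue for sibling controls and red for quadruple mutants. The red points of rgs5b and rgs20 lie far above the blue ones, those of rgs4 lie below, and rgs14a, rgs16 and rgs18 stay near 0.

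The R4 gene rgs5b had 39.1 and 36.7 TPM in the mutant libraries and was listed at 0 TPM in either control. No fold is given against a group at 0, and an exact 0 in a table without counts may also be a failed estimate. Of the 8500 genes listed at 0 in both controls, 7602 were at 0 in all 4 libraries. Among the rest, rgs5b was the single gene that reached 30 TPM in both mutants, a level chosen after its values were seen. Its copy rgs5a was low in both genotypes by comparison, at 4.94 and 5.66 TPM in mutant and 1.01 and 0.64 TPM in control libraries. The mean of rgs5a in the mutants was thus 6.42 times that in the controls (log2 difference 1.79 on the log2(TPM + 1) scale, SE 0.152, n = 2 per genotype). Both rgs5 copies were therefore higher in the mutants, with rgs5b above rgs5a there and below it in the controls.

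The gene rgs4 had the opposite pattern. It was the most abundant member in the controls, at 25.5 and 24.6 TPM, and stood at 4.79 and 6.45 TPM in the mutants. The control mean was 4.46 times the mutant mean (log2 difference -1.99, SE 0.136). By log2 difference it ranked 248 from the lowest of the tested genes. Differences of the remaining R4 members above the filter were smaller. rgs3a was at 4.96 and 4.77 TPM in mutant and 7.33 and 8.15 TPM in control libraries (log2 difference -0.57, SE 0.108). rgs2, which in mammals acts preferentially on Gq, was at 2.74 and 3.36 TPM against 3.49 and 3.57 TPM (-0.17, SE 0.129), and the gap between the genotypes was smaller than the spread between its mutant libraries. Transcripts of rgs16 were at 0 and 0.05 TPM in the mutants and 0.17 and 0.36 TPM in the controls, and rgs18 did not exceed 0.08 TPM in any library.

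The RZ gene rgs20 was at 76.7 and 66.8 TPM in mutant and 0.80 and 0.66 TPM in control libraries. It was under 1 TPM in both controls and the most abundant Rgs gene in both mutants. The ratio of the means was 98.3 and the log2 difference 5.39 (SE 0.110), rank 7 from the highest of the 16172 tested genes. The control values are low enough that the ratio depends on small amounts of signal, and with a pseudocount of 5 TPM in place of 1 TPM the log2 difference was 3.74. Both controls under 1 TPM and both mutants at 30 TPM or more was a pattern of 15 genes among all 32057, by limits chosen after the values were seen, and rgs5b and rgs20 were 2 of them.

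In the R12 group, rgs12b was well expressed in both genotypes. It was at 57.9 and 52.8 TPM in the mutants and at 16.7 TPM in each control, a ratio of 3.31 (log2 difference 1.67, SE 0.076). Its relative rgs14a was at 0.02 and 0.11 TPM in the mutants and 0.26 and 0.14 TPM in the controls. Mammalian RGS12 and RGS14 also bind G alpha in its inactive form through a separate motif.

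The order of the levels differed between genotypes. In the controls rgs4 (25.1 ± 0.658 TPM, SD, n = 2) led rgs12b (16.7 TPM), rgs3a (7.74 ± 0.580 TPM) and rgs2 (3.53 ± 0.0566 TPM), while rgs5a and rgs20 overlapped below these. In the mutants rgs20 (71.8 ± 6.97 TPM) led rgs12b (55.3 ± 3.54 TPM) and rgs5b (37.9 ± 1.73 TPM). After a wide gap came rgs4 (5.62 ± 1.17 TPM), rgs5a (5.30 ± 0.509 TPM) and rgs3a (4.87 ± 0.134 TPM), whose libraries overlapped, and then rgs2 (3.05 ± 0.438 TPM).

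Summed over all 24 Rgs genes, transcripts amounted to 216 and 196 TPM in the mutants and 86.0 and 82.0 TPM in the controls. rgs20 and rgs5b together made up 53.7% and 52.9% of that sum in the mutants and 0.930% and 0.805% in the controls. Without these genes the sums were 99.7 and 92.1 TPM against 85.2 and 81.4 TPM. Without rgs12b as well they were 41.9 and 39.2 TPM in the mutants and 68.5 and 64.7 TPM in the controls. These remainders leave out genes seen to be high in the mutants and are no result about the rest of the family, and rgs4 alone made up much of the gap. The share held by rgs4 was 2.22% and 3.30% in the mutants against 29.7% and 30.0% in the controls.

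**Figure D2:**
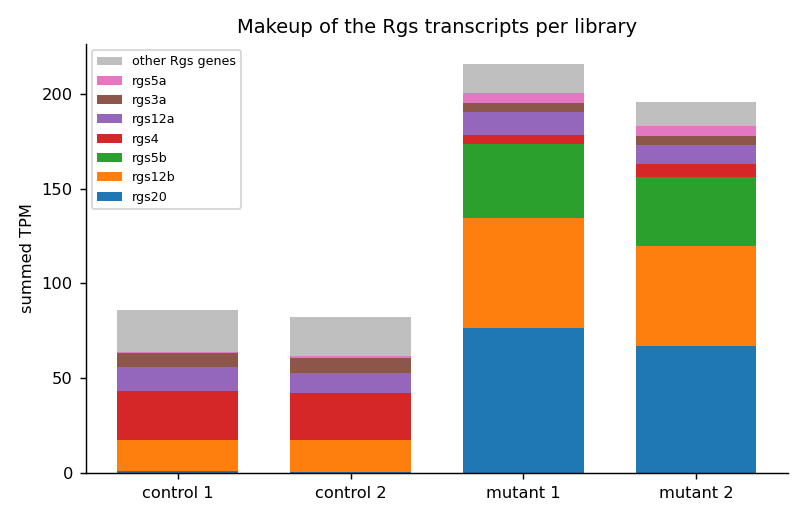
Summed TPM of the 24 Rgs genes in each library, with 1 bar per library split by gene and grey for the genes not named in the key. The mutant bars reach 216 and 196 TPM and the control bars 86.0 and 82.0 TPM, with rgs20, rgs12b and rgs5b filling most of the mutant bars.

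The Rgs genes outside the 10 were used to ask whether relatives of rgs5b and rgs20 moved with them. Of these 14 genes 5 passed the filter, and among them 0 rose and 2 fell by limma (0 higher and 2 lower at an unadjusted p under 0.05 too). The share called was 40.0%, against 65.6% over all tested genes. The median log2 difference of the 5 was -0.55, against -0.10 over all tested genes. These relatives are what the choice of the 10 left over, so their count is not independent of it. rgs3b, the copy of rgs3a, fell from 3.98 and 4.06 TPM in the controls to 1.67 and 1.29 TPM in the mutants (log2 change -1.02, SE 0.133, limma adjusted p = 0.00098). The R7 gene rgs6, whose mammalian protein works in complex with G beta 5, fell from 1.95 and 2.22 TPM to 0.73 and 1.17 TPM (-0.67, SE 0.159, adjusted p = 0.0112, and adjusted p = 0.0838 without control replicate 2).

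The closest relatives of rgs20 and rgs12b did not pass the test. For the RZ genes, rgs17 was at 1.40 and 0.83 TPM in mutant and 1.98 and 1.56 TPM in control libraries (-0.40, SE 0.179, limma adjusted p = 0.0953), and rgs19 at 6.56 and 3.36 TPM against 7.84 and 6.99 TPM (-0.55, SE 0.255, adjusted p = 0.105). Their differences depended on the library left out. Without mutant replicate 1 the log2 changes of rgs17 and rgs19 were -0.59 and -0.95, and without mutant replicate 2 they were -0.20 and -0.15. rgs12a, the copy of rgs12b, was at 12.01 and 10.01 TPM against 12.67 and 10.68 TPM (-0.08, SE 0.129, adjusted p = 0.617), and its sign turned under median ratio scaling (0.03). The high values of rgs20 and rgs12b in the mutants were thus not accompanied by a rise of these relatives, but the difference between the genes was not itself tested. The remaining 9 genes did not reach the filter, and rgs1 was listed at 0 in all 4 libraries. Among them rgs7 (ENSDARG00000016584) was at 0.70 and 1.22 TPM against 0.37 and 0.34 TPM, and another identifier with that symbol (ENSDARG00000096687) at 0.51 and 0.41 TPM against 1.53 and 0.77 TPM.

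**Figure D3:**
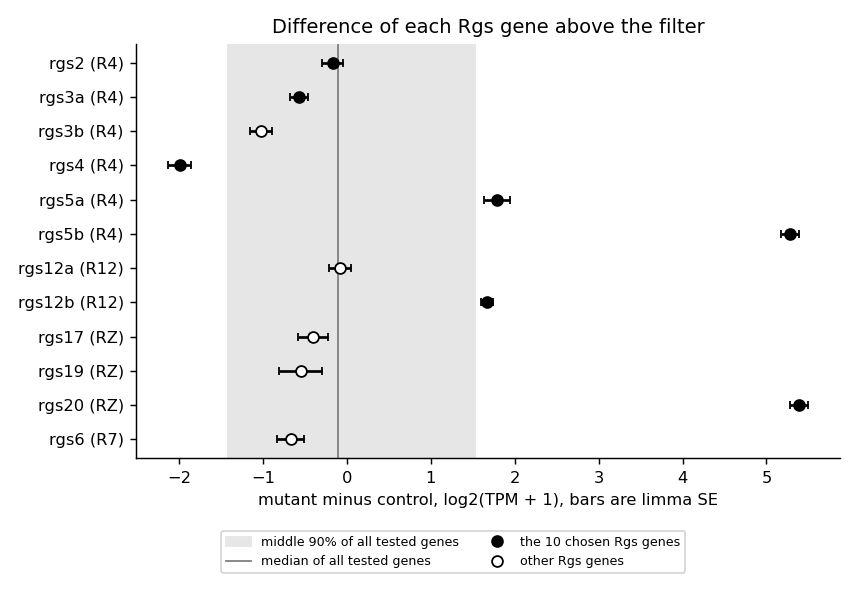
Difference between quadruple mutants and controls in log2(TPM + 1) for the 12 Rgs genes above the filter, with limma standard errors (2 libraries per genotype); filled points are among the 10 chosen genes and open points are the other Rgs genes. The grey band holds the middle 90% of all tested genes, from -1.41 to 1.53: rgs5b, rgs20, rgs5a and rgs12b lie above it, rgs4 below it and all open points inside it.

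Several of these genes lie side by side in the genome, by the gene order of the RefSeq annotation of assembly GRCz12tu, which is not the build of the table and is used only for order. rgs4, rgs5a, rgs16 and rgs8 follow each other with 0 protein-coding genes between neighbours. Within that run rgs4 was lower and rgs5a higher in the mutants, and rgs16 and rgs8 stayed under 1 TPM. A second run holds rgs13a, rgs1 and rgs18, and then rgs5b after 1 intervening gene, brinp3b. In that run rgs5b alone was above 1 TPM: rgs13a did not exceed 0.13 TPM, brinp3b 0.26 TPM and nos1apb, on the other side of rgs5b, 0.20 TPM in any library. The next neighbour with a value, xpr1b, a phosphate exporter gene, rose to 31.6 and 33.2 TPM in the mutants (log2 change 0.48, limma adjusted p = 0.00249). Beside rgs20, the transcription elongation factor gene tcea1 was at 53.0 and 61.4 TPM in mutant and 59.0 and 60.2 TPM in control libraries (adjusted p = 0.545), and the proton pump subunit gene atp6v1h rose from 57.7 and 56.5 TPM to 88.3 and 88.9 TPM (0.63, limma adjusted p = 0.00024). Neither neighbour of rgs20 differed between genotypes by an amount near that of rgs20. That gene was chosen with its large difference known, so nearly any neighbour would differ by less.

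**Figure D4:**
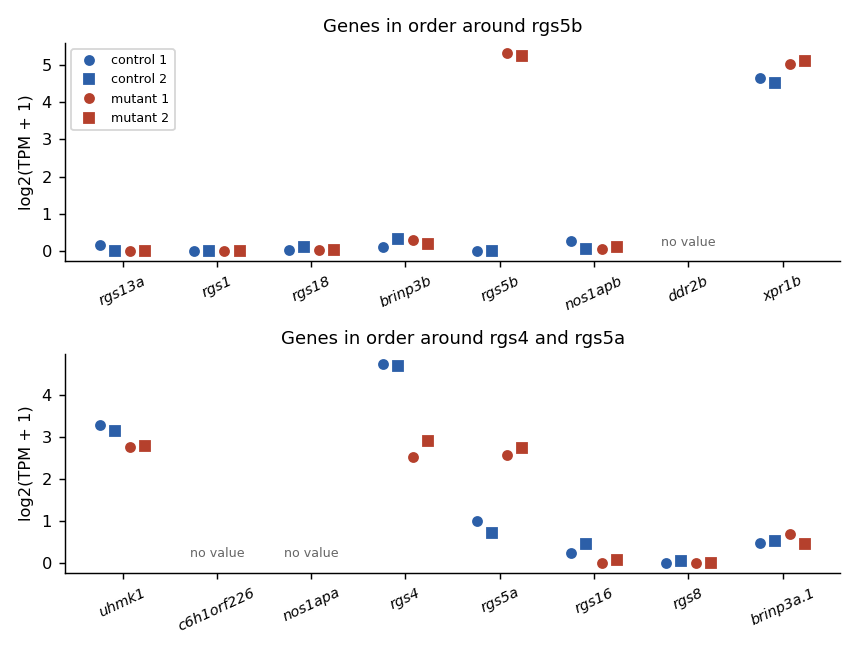
Level of each gene in each library, as log2(TPM + 1), in RefSeq gene order around rgs5b (top) and around rgs4 and rgs5a (bottom); blue is control, red is mutant, and no value means that the symbol had no single match in the table. rgs5b is the sole gene of the upper run with red points far above blue ones, and in the lower run rgs4 and rgs5a differ in opposite directions.

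Genes without a symbol, or with a clone name such as si: or zgc: for one, were left out of the comparison that follows. The remaining tested genes with levels most like those of rgs5b over the 4 libraries, by Euclidean distance in log2(TPM + 1), were chia.6 (distance 0.61), cpn1 (ENSDARG00000096728, 0.67), isg15 (0.67), dtex3lb.1 (0.97) and cxcr3 (1.02). Nearest to rgs20 by the same rule were shisa8b (0.58), mmrn2b (0.64), cbln12 (0.71), cxcr3 (0.71) and irg1l (0.88). isg15 encodes a ubiquitin-like interferon response protein and cxcr3 a chemokine receptor. With 4 libraries in 2 genotypes, this likeness says little more than that the control and mutant levels were similar.

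The lists of related genes below are read against all tested genes, of which 65.6% passed the test and whose median log2 change was -0.10. Some listed genes entered the test through 1 genotype only, being under 1 TPM in both libraries of the other, so a difference was built into their entry and they could not be tested with a library of the higher genotype left out. Such genes are counted or named with each list that held any.

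Among the G alpha subunits, the substrates of the Rgs proteins, 6 of 15 tested genes rose, 3 fell and 6 did not pass (60.0% called, median log2 change 0.19), a share near that of all genes. gnai3, of the Gi class, rose in the mutants, from 9.60 and 9.99 to 60.8 and 55.5 TPM (log2 change 2.45, SE 0.081, limma adjusted p = 8.7e-06). gnai1 rose from 31.7 and 32.5 TPM to 63.4 and 60.6 TPM (0.93, adjusted p = 9.6e-05). The G12 class genes gna13 (ENSDARG00000037924, 1.13, adjusted p = 5.7e-05) and gna12a (from 7.95 and 7.37 TPM to 21.4 and 23.1 TPM, adjusted p = 7.2e-05) rose as well. Another gna13 (ENSDARG00000073765) did not pass (limma adjusted p = 0.0850). The fallers were gna11a of the Gq class (-0.45, adjusted p = 0.0152), the Gi gene gnai2 (ENSDARG00000017294; -0.70, adjusted p = 0.00650) and gnao1b (-1.20, adjusted p = 0.00246, the 1 gene of the list that entered through the controls only), all by limma. A further gnai2 (ENSDARG00000018174) did not pass (adjusted p = 0.181), nor did gna11b (adjusted p = 0.0713) and gnao1 (adjusted p = 0.144), by limma. In the Gq class gna15.1 rose from 12.19 and 13.53 TPM to 18.74 and 19.16 TPM (0.53, limma adjusted p = 0.00284). Both the Gi and the Gq class thus held genes past the test in both directions. Transcripts of gnaz, whose product is the preferred substrate of mammalian RGS20, were at 0.06 and 0 TPM in the mutants and 0.64 and 0.75 TPM in the controls, under the filter where rgs20 was highest. gnaq was also under 1 TPM in every library. Under median ratio scaling, 10 G alpha genes were counted as higher, and without control replicate 2 the count of lower ones was 1.

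Of 13 tested G beta and gamma genes, 4 rose, 3 fell and 6 did not pass (53.8% called, median log2 change 0.05). Among those that did not pass, gng10 entered through the controls only (0.44 and 0.94 TPM in mutant, 1.45 and 1.02 TPM in control libraries). The gamma genes gng2 (from 34.4 and 34.6 TPM to 10.7 and 14.3 TPM, log2 change -1.41, limma adjusted p = 0.00031) and gng3 (-1.55, adjusted p = 0.00048) fell. gng13 (ENSDARG00000037921; 1.79, adjusted p = 0.00071) and gng5 (0.37, adjusted p = 0.00186) rose. Of 9 genes that otherwise set the pace of G protein cycling or silence receptors, 1 rose, 3 fell and 5 did not pass (44.4% called, median -0.21). Both copies of the arrestin gene arrb2 fell, by 0.56 (ENSDARG00000011545) and 1.00 (ENSDARG00000039215), as did gpsm2 by 0.61, which positions the mitotic spindle through Gi. The riser was ric8b, a chaperone of G alpha (0.35, limma adjusted p = 0.00655, and adjusted p = 0.0589 without control replicate 2). The grk genes among these regulators and the arhgef genes among the effectors below also encode proteins with an Rgs homology domain. Of them arhgef12b (0.76), arhgef12 (0.64) and arhgef1 (0.44) rose, while arhgef11 and the tested grk genes did not pass. Among 6 further genes of proteins with such a domain, snx14 rose (0.58), the Wnt pathway scaffold gene axin2 fell (-0.32) and 4 did not pass (33.3% called, median -0.14). Both calls were lost on leaving out some libraries: snx14 had an adjusted p = 0.0753 without control replicate 2 and 0.0792 without mutant replicate 1, and axin2 had 0.0781 and 0.0540 by limma without control replicate 1 or 2.

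Of 13 tested effectors of G proteins, 9 rose, 3 fell and 1 did not pass (92.3% called, median log2 change 0.49), with 1 riser, adcy2, that entered through the mutants only. The adenylyl cyclase gene adcy8 rose from 2.71 and 3.03 TPM to 13.3 and 12.9 TPM (log2 change 1.87, limma adjusted p = 4.7e-05), and adcy9 rose by 1.11 on the log2 scale. The 3 effectors that fell were adenylyl cyclase genes too, adcy6 (ENSDARG00000027797; -0.57, limma adjusted p = 0.00334), adcy7 (-0.37, adjusted p = 0.0149) and adcy5 (-0.42, adjusted p = 0.0371), while another adcy6 (ENSDARG00000061445) rose by 0.41. Without either control replicate 1 or 2 the number of lower effectors was 1.

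Of 36 tested G protein-coupled receptor genes, 12 rose, 10 fell and 14 did not pass (61.1% called, median 0.15), a share near that of all genes, and 4 of the risers, cxcr3 among them, entered through the mutants only. The lowest p-values belonged to cxcr3, at 55.8 and 52.3 TPM against 0.37 and 0.49 TPM, to f2r (ENSDARG00000086236), to the apelin receptor gene aplnrb and to s1pr5 (ENSDARG00000052192). f2r, which encodes a protease-activated receptor of the thrombin receptor type, stood at 3.70 and 3.51 TPM in control libraries and rose to 39.4 and 39.0 TPM (log2 change 3.13, SE 0.085, limma adjusted p = 4.7e-06). Other tested entries named f2r, ENSDARG00000059507 and ENSDARG00000060012, did not pass (limma adjusted p = 0.234 and 0.328). aplnrb rose in the mutants, from 24.98 and 25.75 to 178 and 154 TPM (2.66, SE 0.083, adjusted p = 7.2e-06), while aplnra was at 22.01 and 24.78 TPM against 27.50 and 27.75 TPM and did not pass (adjusted p = 0.0505). A further apelin receptor entry, aplnr (ENSDARG00000004447), fell from 12.30 and 14.50 TPM to 6.77 and 7.36 TPM (-0.83, limma adjusted p = 0.00121). The sphingosine 1-phosphate receptor gene s1pr5 rose in the mutants, from 1.37 and 0.90 to 34.6 and 29.1 TPM (3.95, SE 0.151, adjusted p = 1.3e-05), and its copy s1pr5a fell by 1.20. The endothelin receptor gene ednrab, named after its values were seen, fell from 51.8 and 47.1 TPM to 8.99 and 13.1 TPM (-2.09, limma adjusted p = 0.00015).

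**Figure D5:**
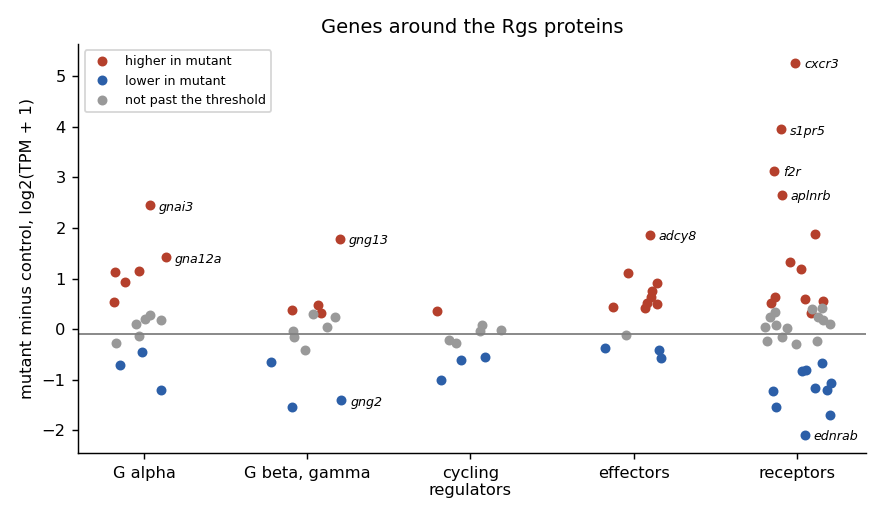
Log2 change between quadruple mutants and controls, on the log2(TPM + 1) scale, of each tested gene in 5 lists around the Rgs proteins; each point is 1 gene, red or blue where it passed the limma test as higher or lower and grey where it did not, with the line at the median of all tested genes. Labelled points include gnai3 at 2.45, cxcr3 at 5.27, aplnrb at 2.66 and ednrab at -2.09.

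Markers of cell types in which mammalian Rgs genes are prominent were read beside the members. Of 16 mural cell marker genes in the table, 7 were tested, 2 rose, 4 fell and 1 did not pass (85.7% called, median -0.43), and the sum of all 16 was 254 and 273 TPM in mutant and 267 and 257 TPM in control libraries, mostly from tagln (ENSDARG00000033466). The pericyte receptor gene pdgfrb fell from 1.99 and 1.73 TPM to 0.82 and 0.73 TPM and was the 1 gene of the list that entered through the controls only, abcc9 did not exceed 0.43 TPM and kcnj8 did not exceed 0.09 TPM, where rgs5b was at 39.1 and 36.7 TPM. acta2 rose from 3.04 and 2.58 TPM to 5.70 and 5.97 TPM. The other riser, notch3, was well expressed in both genotypes. It was at 60.9 and 59.6 TPM in mutant and 53.1 and 50.4 TPM in control libraries (log2 change 0.22, limma adjusted p = 0.0245). Besides pdgfrb, the fallers were foxc1 (-0.76), foxc1b (-0.70) and tbx18 (-0.43). Of 26 thrombocyte and myeloid genes 8 were tested, 1 rose, 5 fell and 2 did not pass (75.0% called, median -0.76, sums 32.6 and 25.7 TPM against 40.8 and 40.8 TPM), with mpl listed at 0 throughout and itga2b at no more than 0.01 TPM, beside the near absence of rgs18. The myeloid transcription factor gene spi1 fell by 1.43 on the log2 scale and the platelet glycoprotein genes gp1bb and gp9 by 0.79 and 0.91. Of the 5 fallers, gp1bb, gp9 and coro1a (3 genes) entered through the controls only, and the 1 riser, mfap4 (ENSDARG00000090557), through the mutants only. Many of the 26 were entries of the mfap4 family, so they are not 26 separate markers. Much of each sum came from mfap4.8 and lcp1, which did not pass. The markers abcc9, kcnj8, mpl and itga2b stayed under 1 TPM in every library of both genotypes and were not tested. Nothing is read from them about rgs5b or rgs18. Of 8 endothelial genes 6 were tested, 2 rose, 1 fell and 3 did not pass (median 0.04, the faller having entered through the controls only, sums 65.6 and 60.6 TPM against 51.5 and 48.3 TPM).

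Most tested neuron markers were lower in the mutants, where rgs4 was lower. Of 17 such genes 13 were tested, 2 rose, 10 fell and 1 did not pass (92.3% called, median -1.20, 3 of the fallers having entered through the controls only), with sums of 125 and 133 TPM in mutant and 245 and 239 TPM in control libraries. Most of each sum came from tubb5 and elavl3. The neuronal RNA-binding protein gene elavl3 fell from 59.6 and 57.2 TPM to 24.2 and 26.5 TPM (log2 change -1.17, limma adjusted p = 7.2e-05), with a ratio of control to mutant means of 2.30 beside 4.46 for rgs4. The proneural gene neurod1 (-1.74) and the synaptic gene snap25 (-1.70, one of those 3) fell further. Another synaptic gene, syt1, rose from 1.16 and 1.28 TPM to 3.32 and 3.18 TPM (0.94, limma adjusted p = 0.00097). The other riser was isl2 (ENSDARG00000003971, 0.21, limma adjusted p = 0.0436), while a further isl2 (ENSDARG00000053499) fell (-1.18). What part the neuron markers have in the low values of rgs4 was not tested, nor that of the mural markers for rgs5a and rgs5b or of the blood markers for rgs18.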

How the data were processed

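Poly-A RNA libraries of whole zebrafish embryos, 2 per genotype, were grouped by title and genotype label. The deposited file gives TPM per Ensembl gene, 1 column per library, per the file headers. The submitters' processing notes list, with no roles, the build GRCz11 and the programs DESeq2 (1.42.1), HTSeq (0.12.3), RSEM (1.3.3), STAR (2.7.3a) and R (4.3.3). The program behind the TPM, its annotation and its use of strand are points not given in the sources used here, so values of near-identical copies and of overlapping genes are uncertain. A rise in abundant genes lowers the TPM of others.

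Symbols came from a table that named 28988 identifiers and left 3069 unnamed. limma (version 3.58.1) was run on log2(TPM + 1) of the 16172 genes that reached 1 TPM in 2 or more libraries. It moderated variances along a trend with mean level, with 3.91 prior and 2 residual degrees of freedom. The Benjamini-Hochberg adjustment ran over all these genes. The fit was tried on simulated data with 200 changed genes, all drawn from genes expressed in the controls. Far more genes passed in the real data, so that trial does not vouch for the calls given here. With 2 libraries per genotype, the smallest p of an exact permutation test, two-sided, is 0.333. Tables and figures used Python 3.11.15 (pandas 2.3.3, numpy 2.4.6, matplotlib 3.10.9).

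The members and the 11 gene lists (other Rgs genes, G alpha, G beta and gamma, cycling regulators, effectors, receptors, further Rgs homology domain proteins, and markers of mural, blood, endothelial and neuronal cells) were chosen with earlier results of these data known. Named genes were all members, tested Rgs relatives, up to 4 genes of lowest p per list, the 5 nearest in pattern to rgs5b and to rgs20, genes beside the members in the genome, and, named after their values were seen, defining markers and paralogues such as gnaz, gnaq, gna15.1, gna11b, gnao1, arhgef1, arhgef11, aplnra, aplnr, s1pr5a, syt1 and ednrab. Genes without a symbol or with a clone name as symbol were left out of the search for the nearest genes. The alternatives were other pseudocounts, filters and scalings, no variance trend, a replicate block and each library left out in turn. No sequences were used here. One result on effectors is not reported here.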

Additional observations from a re-analysis of the deposited data

How the results depend on the processing

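The cause of each change below was not tested unless stated. With either mutant library left out, 2 members were counted as higher (range 2 to 4), because rgs5b and rgs20, under 1 TPM in both controls, then reached the filter in 1 library only and were not fitted. The sign of the difference of each fitted member was kept under every alternative. The log2 difference of rgs5b was 8.57 with a pseudocount of 0.1 TPM and 3.10 with 5 TPM, and that of rgs20 was 6.44 and 3.74. Of the other Rgs genes, 1 was higher without a filter, 0 were lower with a minimum of 5 TPM (2 genes left), and 1 to 4 were lower with a library left out. rgs12a turned to 0.03 under median ratio scaling and ranged from -0.20 to 0.04 with a library left out. Median ratio scaling, which moved the median of all genes from -0.10 to 0.00, gave 10 higher G alpha genes and 1 lower effector. Without a filter 4 cycling regulators were higher and 5 effectors lower, and with a minimum of 5 TPM 5 effectors were higher. With a library left out, 1 to 3 G alpha genes were lower, 0 to 1 cycling regulators higher and 1 to 2 effectors lower. A genotype with 1 library was then assumed to vary like the other. Whether libraries of the same replicate number share a clutch or batch is not labelled. The difference between replicates 1 and 2 had a correlation of 0.05 over genes between mutants and controls, which cannot settle this. With a replicate block 4457 genes were higher and 6062 lower, against 4522 and 6091, and rgs19 passed (limma adjusted p = 0.0279). Depth is unknown, so values near 0 TPM, such as those of rgs16, rgs18 and the controls of rgs20, cannot be given a detection limit.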
